A study of Nicotiana tabacum with 9 samples.

Results

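Neighbouring but separate sites of AmMIXTA and NtZFP8 were peaks of either protein that overlapped no listed peak of the other but had a centre of the other within 1000 bp on the same nuclear sequence. Members and their partners both had a peak shape score above 2. There were 2024 such neighbour peaks, 5.70% of the 35525 nuclear peaks past that score. AmMIXTA had 809 neighbour peaks of 20512 past the score (3.94%, 95% Wilson interval 3.69 to 4.22%) and NtZFP8 had 1215 of 15013 (8.09%, 7.67 to 8.54%). The nuclear peaks past a score of 2 were themselves 70.3% of the 29189 nuclear peaks listed for AmMIXTA and 72.5% of the 20715 listed for NtZFP8. The rule could be applied as its label states and gave members for both proteins. Members were chosen by the regions, centres and scores of both lists, so the counts, distances and scores below describe the members and carry no test.

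AmMIXTA is a snapdragon transcription factor of the R2R3-MYB class that gives petal epidermal cells their conical shape, and related MYB factors act in trichome formation. NtZFP8 is a C2H2 zinc finger protein of tobacco, a class of factors with known roles in trichome initiation in Arabidopsis. DAP-seq exposes fragmented genomic DNA to a tagged factor that was translated in vitro and attached to beads, and sequences what the beads retain, so that each factor meets naked DNA without chromatin and without the other factor. A peak therefore marks DNA held in vitro by 1 protein at a time, and neighbouring peaks of the proteins were never measured in the same tube.

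The series held 9 samples in 3 groups of 3, HALO-tagged AmMIXTA, HALO-tagged NtZFP8 and a HALO-tagged, nuclear-targeted GFP as the negative control. Each protein was expressed 3 separate times in wheat germ extract, and all groups used DNA of leaf primordia of wild-type Nicotiana tabacum, cultivar Petit Havana SR1. For each protein the authors deposited a list of peaks called over GFP and a table in which some of those peaks are assigned to genes. The same GFP libraries stand behind both lists. The score was computed by the authors for each peak and has no unit. The lists give nothing per replicate, so replicate error and depth are unknown and scores of AmMIXTA and NtZFP8 were not tested against each other. All intervals are for counting error alone and treat peaks as independent, which adjacent peaks are not.

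Having a partner close by was more frequent among unshared NtZFP8 sites than among unshared AmMIXTA sites. Among NtZFP8 peaks that overlapped no listed AmMIXTA peak, 1215 of 3801 (32.0%, 30.5 to 33.5%) had an AmMIXTA centre within 1000 bp. Among AmMIXTA peaks that overlapped no listed NtZFP8 peak, 809 of 8735 (9.26%, 8.67 to 9.89%) had an NtZFP8 centre in that distance. The lists differ in length, with 20512 AmMIXTA and 15013 NtZFP8 nuclear peaks past 2, and the part of list size in these shares was not tested. The remaining peaks past the score were 7926 AmMIXTA and 2586 NtZFP8 peaks that stood isolated, 10053 AmMIXTA and 10077 NtZFP8 peaks that overlapped a peak past 2 of the other protein, and 1724 AmMIXTA and 1135 NtZFP8 peaks that overlapped only a weaker listed peak. The neighbour peaks were spread thinly over 1320 sequences, of which 364 held neighbour peaks of both proteins. Of the 708 sequences with AmMIXTA neighbour peaks, 626 (88.4%) held a single such peak and none held more than 5. Of the 976 with NtZFP8 neighbour peaks, 833 (85.3%) held a single such peak and none held more than 9.

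A few scaffolds gathered many. NW_015847361.1 held the most, 5 AmMIXTA neighbour peaks among 9 AmMIXTA peaks past 2 and 8 NtZFP8 neighbour peaks among 17 NtZFP8 peaks past 2. NW_015948570.1 came next with 1 of 13 AmMIXTA peaks and 9 of 25 NtZFP8 peaks. NW_015888797.1 held 9 NtZFP8 neighbour peaks among 21 and no AmMIXTA neighbour peak among 6. Each of these scaffolds had more NtZFP8 than AmMIXTA neighbour peaks.

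Neighbour peaks scored below shared peaks and slightly above isolated ones for both proteins. The median score of AmMIXTA neighbour peaks was 2.76 (interquartile range 2.30 to 3.50, highest 15.6), against 3.98 in shared and 2.50 in isolated AmMIXTA peaks. The median of NtZFP8 neighbour peaks was 2.79 (2.29 to 3.91, highest 14.2), against 3.58 in shared and 2.41 in isolated NtZFP8 peaks. High scores took a larger share of the NtZFP8 members, although the highest score was an AmMIXTA one. A score above 5 was reached by 71 of 809 AmMIXTA neighbour peaks (8.78%), 34.9% of shared and 4.24% of isolated peaks, with 19.7% over all nuclear AmMIXTA peaks past 2. For NtZFP8 it was reached by 197 of 1215 neighbour peaks (16.2%), 29.2% of shared and 4.45% of isolated peaks, with 21.8% over all. A score above 10 was reached by 4 AmMIXTA neighbour peaks (0.494%, with 4.47% over all AmMIXTA peaks past 2) and 33 NtZFP8 neighbour peaks (2.72%, with 5.84% over all). The rule uses the score limit and overlap with the other protein's list, so these differences are given without a test.

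**Figure D1:**
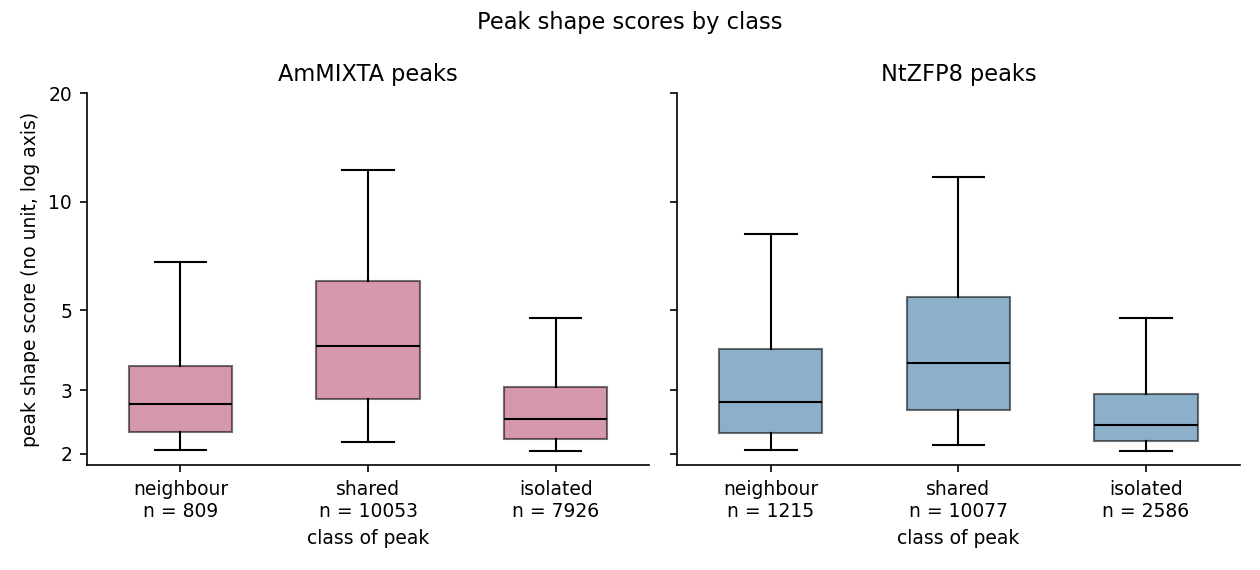
Peak shape score (log axis, no unit) of neighbour, shared and isolated nuclear peaks past 2, for AmMIXTA and NtZFP8. The neighbour medians of 2.76 for AmMIXTA and 2.79 for NtZFP8 lie between the shared medians (3.98 and 3.58) and the isolated medians (2.50 and 2.41).

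The neighbour peaks fell into 2 kinds, set apart by what lay next to them. In the first, the nearest partner was itself held by a single protein, so that an AmMIXTA site and an NtZFP8 site stood side by side. This was so for 350 of 809 AmMIXTA neighbour peaks (43.3%) and 346 of 1215 NtZFP8 neighbour peaks (28.5%). In the second, the nearest partner was a peak that both proteins held, so that 1 protein had a site of its own beside a common site. This was so for 459 AmMIXTA (56.7%) and 869 NtZFP8 neighbour peaks (71.5%), and in 410 and 790 of these cases the common site was past 2 for both proteins.

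By scores from separate lists, sites of either protein beside a common site had the lower score of their pair more often than not. NtZFP8 sites beside a common site had a median of 2.85, against 4.29 for the AmMIXTA peak next to them, and 255 of 869 (29.3%) scored above it. AmMIXTA sites beside a common site had a median of 2.60, against 3.00 for the NtZFP8 peak next to them, and 174 of 459 (37.9%) scored above it. Where both sites were held singly the medians were closer, 2.92 for AmMIXTA against 2.62 for its NtZFP8 partner, and 2.67 for NtZFP8 against 2.93 for its AmMIXTA partner. Among AmMIXTA members a score above 5 went with fewer common sites, while the share among NtZFP8 members changed less. Of the 71 AmMIXTA neighbour peaks above 5, 23 (32.4%) stood beside a common site, against 56.7% of all AmMIXTA neighbour peaks. All 4 above 10 stood beside an NtZFP8 peak that no AmMIXTA peak overlapped, too few to describe a relation. Of the 197 NtZFP8 neighbour peaks above 5, 156 (79.2%) stood beside a common site, against 71.5% of all NtZFP8 neighbour peaks. Of the 33 above 10, 24 (72.7%) did, near that share.

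Members also sat among other peaks of their own protein. An own-protein peak past 2 lay within 1000 bp of 60.7% of AmMIXTA neighbour peaks, 21.5% of shared and 5.96% of isolated AmMIXTA peaks, and of 72.5% of NtZFP8 neighbour peaks, 24.4% of shared and 19.7% of isolated NtZFP8 peaks. Part of this follows from the rule, since a member beside a common site mostly has a peak of its own protein there. Another listed region of the same protein lay 5 bp or less away for 23 AmMIXTA neighbour peaks (2.84%), 0.517% of shared and 0.442% of isolated AmMIXTA peaks. The same held for 19 NtZFP8 neighbour peaks (1.56%), 0.417% of shared and 0.309% of isolated NtZFP8 peaks. Most members had a single partner, namely 709 AmMIXTA (87.6%) and 991 NtZFP8 neighbour peaks (81.6%). Partners on both sides were seen for 84 AmMIXTA (10.4%) and 178 NtZFP8 neighbour peaks (14.7%), and the most partners were 4 for an AmMIXTA and 3 for an NtZFP8 peak.

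The distance from centre to centre had a median of 600 bp for AmMIXTA neighbour peaks (interquartile range 445 to 785 bp) and 523 bp for NtZFP8 neighbour peaks (412 to 712 bp). The shortest was 238 bp, since regions of members and partners could not overlap. Median widths were 364 bp for neighbour, 368 bp for shared and 405 bp for isolated AmMIXTA peaks, and 285, 284 and 290 bp for the same classes of NtZFP8 peaks. The stretch between the facing edges of a member and its nearest partner had a median of 295 bp for AmMIXTA and 250 bp for NtZFP8. It was 50 bp or less in 89 AmMIXTA (11.0%) and 134 NtZFP8 neighbour peaks (11.0%), members that were separate from their partner by a narrow margin. At the limit of the distance, 72 unshared AmMIXTA peaks with a partner 900 to 1000 bp away had a median score of 2.69, and 58 just outside, at 1000 to 1100 bp, had 2.68. For NtZFP8 the 93 peaks just inside had a median of 2.61 and the 60 just outside had 2.56. At the limit of the score, 76 AmMIXTA and 117 NtZFP8 members scored 2.0 to 2.1, and 74 AmMIXTA and 131 NtZFP8 peaks that would otherwise have been members scored 1.9 to 2.0.

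**Figure D2:**
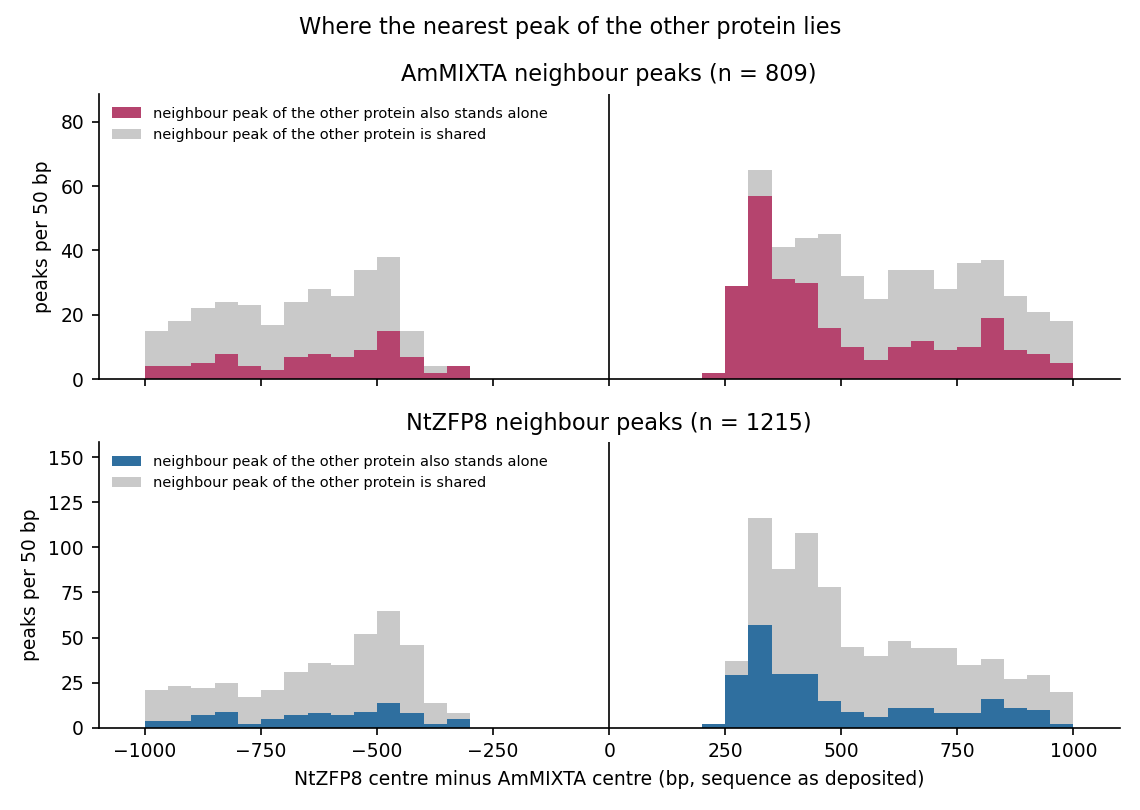
Number of neighbour peaks by the position of the NtZFP8 centre minus the AmMIXTA centre (bp) for each member and its nearest partner, positive where NtZFP8 lies at the higher coordinate of the sequence. The NtZFP8 centre lies at the higher coordinate in 517 of 809 AmMIXTA and 799 of 1215 NtZFP8 neighbour peaks.

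The order of the sites along the sequences was uneven, a measure the rule does not name. Whichever protein the members were counted from, NtZFP8 lay more often at the higher coordinate, in 517 of 809 AmMIXTA (63.9%) and 799 of 1215 NtZFP8 neighbour peaks (65.8%). The direction of a scaffold's coordinates is an arbitrary outcome of assembly, and no gene or strand was taken into account. How reads were placed on strands or shifted before peaks were called is not stated for either list, so a difference in that handling between the lists would change these shares, and its part was not tested. The imbalance was strongest where little lay between the regions. With 100 bp or less between facing edges, NtZFP8 was on the higher side of 136 of 150 AmMIXTA neighbour peaks (90.7%, 84.9 to 94.4%) and 218 of 255 NtZFP8 neighbour peaks (85.5%, 80.6 to 89.3%). With 200 to 400 bp between them the order was close to even, at 128 of 283 AmMIXTA (45.2%, 39.5 to 51.1%) and 195 of 382 NtZFP8 neighbour peaks (51.0%, 46.0 to 56.0%). Beyond 400 bp it was 162 of 259 (62.5%) for AmMIXTA and 211 of 333 (63.4%) for NtZFP8. Stretches this long lie nearest the 1000 bp limit, and the part of that limit in these shares was not tested.

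The imbalance was seen in both kinds of member. With 100 bp or less between edges, NtZFP8 was on the higher side in 118 of 127 AmMIXTA and 115 of 124 NtZFP8 neighbour peaks with a singly held partner, which largely count the same pairs from either end. Beside a common site it was on the higher side in 18 of 23 AmMIXTA and 103 of 131 NtZFP8 neighbour peaks. Among NtZFP8 members the order moved with the score. Of the NtZFP8 neighbour peaks above 10, 32 of 33 (97.0%) lay on the higher side of their partner, against 431 of 695 (62.0%) of those at 2 to 3. For AmMIXTA it was 48 of 71 above 5 (67.6%, 56.1 to 77.3%), against 292 of 482 at 2 to 3 (60.6%, 56.2 to 64.8%), and these intervals overlap. All 4 AmMIXTA neighbour peaks above 10 had NtZFP8 on their higher side, too few to describe a relation. NtZFP8 neighbour peaks above 10 also lay nearer their partner, at a median of 446 bp, against 523 bp over all NtZFP8 neighbour peaks. The parts of score and distance in the order were not tested.

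**Figure D3:**
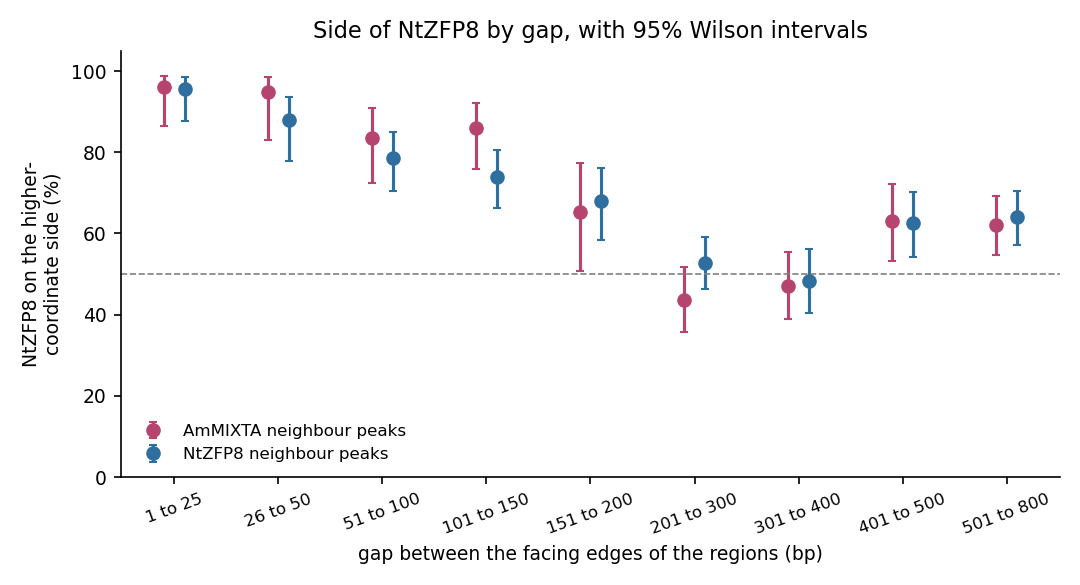
Percent of AmMIXTA and of NtZFP8 neighbour peaks with NtZFP8 at the higher coordinate, by the stretch in bp between the facing edges of the regions, with 95% Wilson intervals. For AmMIXTA neighbour peaks the share is 96.0% at 25 bp or less and 43.5% at 201 to 300 bp.

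Regions of the proteins were not drawn alike around their centres. The centre of an AmMIXTA neighbour peak lay at a median of 53.7% of the way from the region's lower to its higher edge, against 61.8% in shared and 61.0% in isolated AmMIXTA peaks. NtZFP8 centres lay at 48.3% in neighbour, 46.8% in shared and 48.0% in isolated peaks. AmMIXTA regions thus reached further to the lower side of their centres than to the higher side. Pairs that did overlap were also ordered when their centres were apart. In the 10087 overlapping pairs past 2 the NtZFP8 centre minus the AmMIXTA centre had a median of -8 bp (interquartile range -19 to 5 bp), but among the 667 with centres more than 100 bp apart, NtZFP8 was on the higher side in 628 (94.2%, 92.1 to 95.7%). The part of region shape in the order of the sites was not tested.

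A mutual pair was an AmMIXTA peak and an NtZFP8 peak within 1000 bp of each other, each without a listed peak of the other protein over it. There were 387 such pairs, made of 359 AmMIXTA and 362 NtZFP8 peaks on 325 sequences. Their centres were a median of 494 bp apart (interquartile range 354 to 732 bp), and 126 pairs (32.6%) lay within 400 bp. The stretch between edges had a median of 203 bp and was 50 bp or less in 82 pairs (21.2%). Over all neighbour peaks of either protein that share was 11.0%, so mutual pairs were more often separate by a narrow margin. AmMIXTA had the higher score in 222 pairs (57.4%). Scores within a pair were of like size, with a median ratio of the higher to the lower of 1.28 (1.10 to 1.58, largest 4.15), in a set that the rule holds above 2 and where most scores were low. Both scores were above 3 in 94 pairs (24.3%) and above 5 in 18 (4.65%). NtZFP8 was on the higher side in 282 of the 387 pairs (72.9%, 68.2 to 77.1%), and in 119 of the 128 (93.0%, 87.2 to 96.3%) with 100 bp or less between edges.

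**Figure D4:**
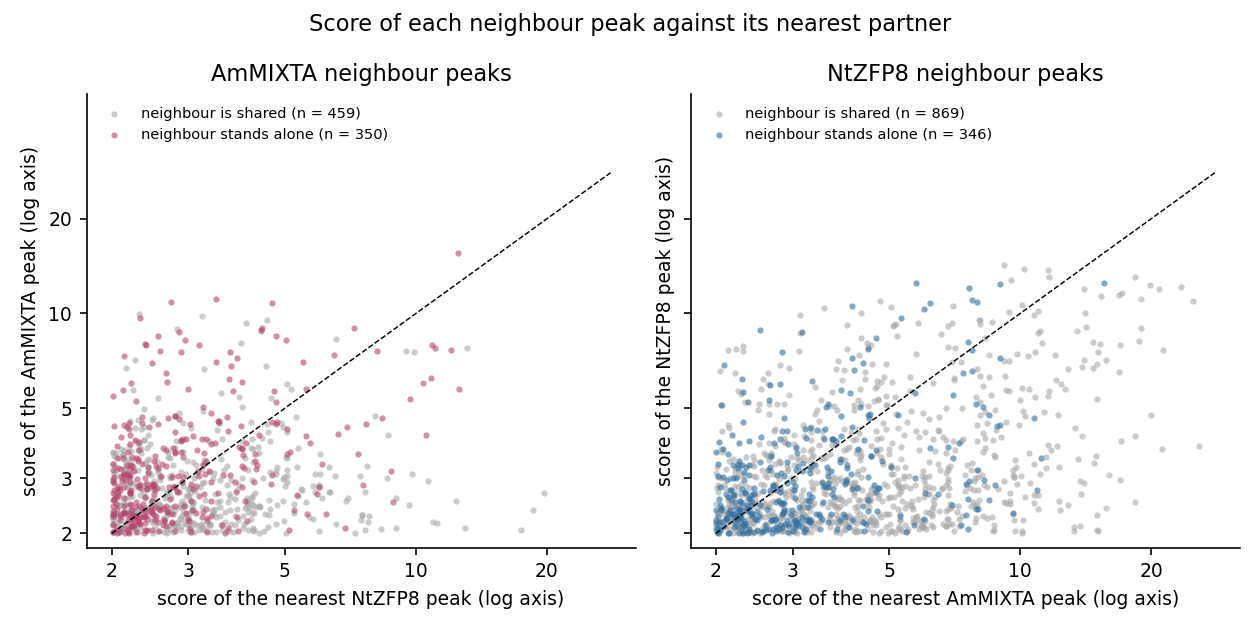
Peak shape score of each neighbour peak against that of its nearest partner, for AmMIXTA and for NtZFP8 neighbour peaks (log axes, no unit). The nearest partner is singly held for 350 AmMIXTA and 346 NtZFP8 neighbour peaks. It is a peak that both proteins held for 459 AmMIXTA and 869 NtZFP8 neighbour peaks.

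The strongest mutual pair lay at the start of scaffold NW_015916266.1, with an AmMIXTA peak at positions 80 to 540 (score 15.6) and an NtZFP8 peak at 672 to 992 (score 12.5), 600 bp from centre to centre. No other listed peak lay within 1500 bp of the AmMIXTA centre. On NW_015920593.1 an AmMIXTA peak at 28931 to 29168 (9.01) stood before an NtZFP8 peak at 29223 to 29631 (12.4), with 54 bp between them, and a weaker NtZFP8 neighbour peak of 4.42 lay on its lower side at 28478 to 28711. A site held by both proteins, with AmMIXTA at 6.92 and NtZFP8 at 7.09, followed further along.

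On NW_015931659.1 the gap was narrower still. An AmMIXTA peak at 13752 to 14019 (7.94) and an NtZFP8 peak at 14025 to 14301 (10.9) were 5 bp apart by their edges and 300 bp by their centres. A site held by both, at 9.04 for AmMIXTA and 9.30 for NtZFP8, lay 597 bp to the lower side by its AmMIXTA centre. Beyond it were an NtZFP8 neighbour peak of 2.57 and a common site where AmMIXTA scored 4.55. On NW_015812155.1 a single AmMIXTA peak at 73041 to 73340 (7.76) had 3 singly held NtZFP8 partners. They were at 73372 to 73678 (11.1, 364 bp away on the higher side), at 72488 to 72721 (7.64, 578 bp away on the lower side) and at 72103 to 72333 (6.56, 954 bp away on the lower side). This scaffold shows NtZFP8 alone at several places around a lone AmMIXTA site, with common sites following beyond.

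Few of these sites were tied to genes, as was so for nuclear peaks past 2 in general. According to the authors' deposited tables, a gene was assigned to 37 of 809 AmMIXTA neighbour peaks (4.57%) and 70 of 1215 NtZFP8 neighbour peaks (5.76%), against 6.20% of all nuclear AmMIXTA and 6.01% of all nuclear NtZFP8 peaks past 2. In 365 of the 387 mutual pairs (94.3%) neither peak was assigned, and the 30 pairs with the highest lower score included none with an assigned peak. The assigned members gave 36 genes of 1196 with an AmMIXTA peak past 2 (3.01%) and 58 of 754 with an NtZFP8 peak past 2 (7.69%), 76 genes in all, of which 18 had a neighbour peak of each protein. Descriptions other than uncharacterized were carried by 15 genes with an AmMIXTA and 32 with an NtZFP8 neighbour peak. Most of these genes had further peaks. A peak past 2 of the other protein was assigned to 33 of 36 genes with an AmMIXTA neighbour peak (91.7%) and to 53 of 58 with an NtZFP8 neighbour peak (91.4%), against 593 of 1196 (49.6%) of all genes with an AmMIXTA and 593 of 754 (78.6%) of all with an NtZFP8 peak past 2. The rule requires a peak of the other protein within 1000 bp of each member, so these shares are partly fixed by the choice of members.

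The gene with the highest described AmMIXTA neighbour peak was LOC107775864, a THO complex subunit 6-like gene (the THO complex acts in mRNA export). Its peak on NW_015901085.1 at 86753 to 87147 scored 5.71, and the nearest NtZFP8 peak, 533 bp away on the lower side, scored 2.24 and lay on a common site. LOC107794712, a casein kinase I-like gene, held a mutual pair of its own. AmMIXTA scored 4.68 at 67548 to 67965 of NW_015924362.1 and NtZFP8 scored 3.68 at 68068 to 68286, with 102 bp between them and no other listed peak within 1500 bp. A pentatricopeptide repeat gene, LOC107784977, of a family that binds RNA in organelles, had the same arrangement, with AmMIXTA at 3.27 and NtZFP8 at 2.67, 414 bp apart.

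The remaining named AmMIXTA genes stood at lower scores. LOC107817277, a G-type lectin receptor kinase of the SD2-5 type, had an AmMIXTA neighbour peak of 3.57, 591 bp from an NtZFP8 peak of 6.02 on a common site. LOC107800555, a homolog of 26S protease regulatory subunit 6A, an ATPase of the proteasome, had 3.04 for AmMIXTA beside 5.07 for NtZFP8, 456 bp away. LOC107820968, a putative tRNA methyltransferase, had 3.05 beside 2.84 at 822 bp. LOC107826256, a ubiquinone biosynthesis O-methyltransferase-like gene, had 2.82 beside 2.91 at 621 bp. LOC107832269, named for the cytochrome c biogenesis protein CcmF, had 2.71 beside 3.87 at 922 bp. LOC107807057, a TIFY 6B-like gene of the family that holds the JAZ repressors of jasmonate signalling, had 2.48 beside 2.88 at 851 bp. These scores lay close to the limit of 2, and all but the SD2-5 and 26S genes had partners below 4.

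The NtZFP8 genes named next were those with the highest neighbour peaks among 32 described genes, against 15 described genes for AmMIXTA. The same number was taken for each protein, so the NtZFP8 choice was the more extreme and scores are not compared between proteins. Over all described NtZFP8 genes the neighbour peaks ranged from 12.3 down to 2.01. Most of the NtZFP8 genes named here lay beside a common site. LOC107781153, described as craniofacial development protein 2-like, led them with an NtZFP8 neighbour peak of 12.3 at 109165 to 109491 of NW_015907156.1. Beside it both proteins held a common site, with AmMIXTA at 19.9 and NtZFP8 at 14.1, and only 32 bp lay between the AmMIXTA region and the neighbour peak. There the NtZFP8 regions met at position 109165, so the neighbour peak begins where the listed NtZFP8 peak of the common site ends. LOC107770945, named for the plastid protein Ycf2, had an NtZFP8 neighbour peak of 12.0 beside a common site of 14.0 for AmMIXTA and 8.87 for NtZFP8, 446 bp away. LOC107786831, a JACKDAW-like zinc finger gene whose namesake patterns root tissue in Arabidopsis, had an NtZFP8 neighbour peak of 12.0 at 34447 to 34740 of NW_015913826.1. Its common site, 478 bp to the lower side, was at 20.8 for AmMIXTA and 7.30 for NtZFP8. In both the Ycf2-like and the JACKDAW-like gene the site of NtZFP8 alone thus scored above its own peak on the common site.

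LOC107777060, named for SYD, a SWI/SNF chromatin remodelling ATPase of Arabidopsis, showed the same order, with an NtZFP8 neighbour peak of 9.52 beside a common site of 8.02 for AmMIXTA and 6.74 for NtZFP8, 322 bp away. A pair of TMV resistance protein N-like genes, named for the tobacco immune receptor against tobacco mosaic virus, lay on scaffold NW_015920281.1. This scaffold held 21 NtZFP8 peaks past 2, of which 7 were neighbour peaks, and 10 AmMIXTA peaks past 2. LOC107791816 had NtZFP8 neighbour peaks of 9.20 and 6.65, and LOC107791820 had one of 8.07, 451 bp from an AmMIXTA peak of 4.45. LOC107803920, another 26S protease subunit 6A homolog, had an NtZFP8 neighbour peak of 7.64, 613 bp from a common site where AmMIXTA reached 21.3 and NtZFP8 6.12. The disease resistance genes RGA3 (LOC107803914) and RGA1 (LOC107804150) were assigned the same mutual pair on NW_015788820.1, with AmMIXTA at 2.38 and NtZFP8 at 5.25, 329 bp apart, and count as a single locus.

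Cytochrome b6 (LOC107769160), a subunit of a photosynthetic electron transfer complex that plastid DNA encodes, had neighbour peaks of both proteins among common sites. On nuclear scaffold NW_015889159.1 it had a mutual pair, AmMIXTA at 9578 to 9871 (4.35) and NtZFP8 at 9901 to 10269 (6.96), with 29 bp between them. Common sites flanked the pair, at 6.36 for AmMIXTA and 6.38 for NtZFP8 on the lower side and at 12.6 for AmMIXTA and 9.80 for NtZFP8 on the higher side. Further along lay a second mutual pair of the gene, AmMIXTA at 3.10 and NtZFP8 at 8.35, 819 bp apart.

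**Figure D5:**
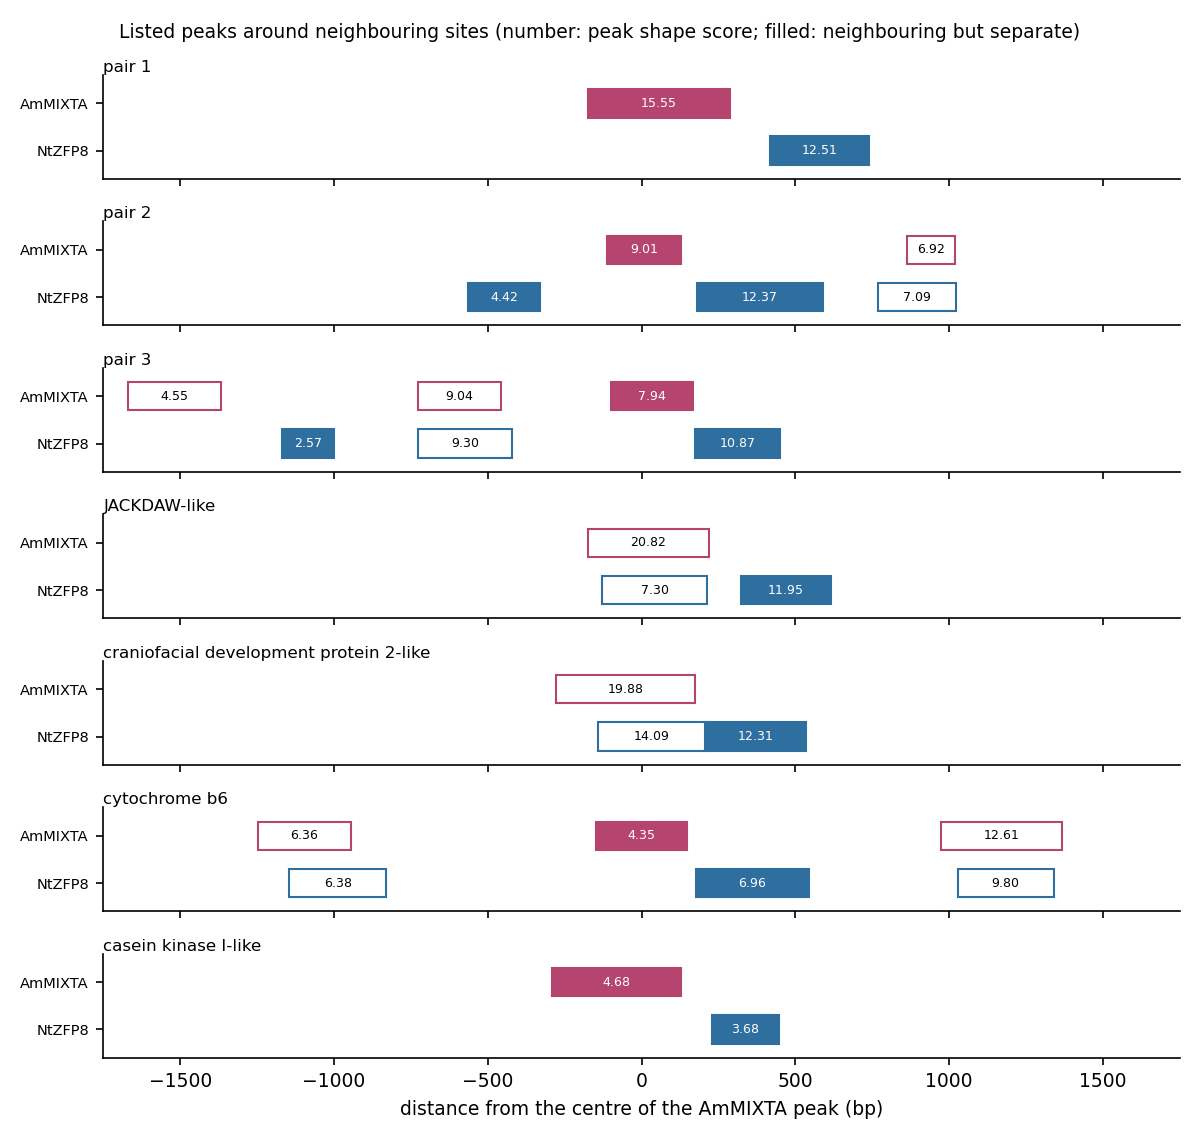
Listed peaks of AmMIXTA and NtZFP8 at 7 loci, by distance in bp from an AmMIXTA peak centre, with the score beside each peak. Filled bars are neighbouring but separate peaks and white bars overlap a listed peak of the other protein. The first 3 loci are the mutual pairs with the highest lower score, and the JACKDAW-like and craniofacial development protein 2-like genes show an NtZFP8 peak beside a common site.

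By gene groups, counts in the fixed lists were small and lay near the background of 3.01% of all genes past 2 with an AmMIXTA and 7.69% with an NtZFP8 neighbour peak. None of the genes past 2 in the trichome list (6 for AmMIXTA, 4 for NtZFP8), the cuticle list (11 and 6), the hormone list (11 and 8), the cell wall list (20 and 12) or the cytochrome P450 list (9 and 4) had a neighbour peak. TIFY 6B-like, a jasmonate gene by its family, was not matched by the hormone list. Of the transcription factors, none of 43 had an AmMIXTA neighbour peak and 2 of 24 had an NtZFP8 neighbour peak. These were the JACKDAW-like gene and LOC107779404, named for RAX3, an R2R3-MYB factor of axillary meristems in Arabidopsis, whose NtZFP8 neighbour peak of 2.18 lay 753 bp from an AmMIXTA peak of 3.84. In lists of this size such counts say nothing particular about these classes.

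Kinases and phosphatases had 3 of 63 genes with an AmMIXTA and 3 of 46 with an NtZFP8 neighbour peak. Ubiquitin and proteasome genes had 1 of 45 and 1 of 23, RNA-binding and pentatricopeptide genes 1 of 29 and 1 of 22, and transport genes 0 of 40 and 1 of 19. The named NtZFP8 genes of these lists had neighbour peaks of 4.09 (LOC107803457, inositol polyphosphate 5-phosphatase 8-like, beside AmMIXTA at 13.9), 2.45 (LOC107767863, a CDL1-like kinase, beside 3.86) and 2.49 (LOC107804577, purine permease 3-like, beside 9.26). The cell cycle list had 0 of 22 genes with an AmMIXTA and 1 of 16 with an NtZFP8 neighbour peak. That gene, LOC107827369, is a succinyl-CoA ligase of mitochondrial metabolism and was matched only through letters of its description.

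A list of genes with names of plastid or mitochondrial proteins was drawn up after the values were seen and supports nothing beyond these genes. It missed some such names, the Ycf2-like gene among them, and only 2 of its AmMIXTA and 10 of its NtZFP8 genes with a neighbour peak carry a description other than uncharacterized. It took in 6 of the 35 such genes past 2 for AmMIXTA and 14 of 31 for NtZFP8, which was 16.7% of the genes with an AmMIXTA neighbour peak, against 2.93% of all genes past 2, and 24.1% of those with an NtZFP8 neighbour peak, against 4.11% of all. An example is LOC107761930, named for the mitochondrial open reading frame AtMg00660, with a mutual pair of AmMIXTA at 7.24 and NtZFP8 at 3.88, 335 bp apart. Disease resistance genes, also listed after the values were seen, came to 2 of 19 for AmMIXTA and 4 of 14 for NtZFP8, which was 5.56% of the genes with an AmMIXTA neighbour peak, against 1.59% of all genes past 2, and 6.90% of those with an NtZFP8 neighbour peak, against 1.86% of all. RGA3 and RGA1 enter these counts as 2 genes although they share 1 pair.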

How the data were processed

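DAP-seq peaks of AmMIXTA and NtZFP8, called against GFP, were taken from the authors' deposited lists. Filtered reads had been mapped to the tobacco genome of Sierro et al., per the series' design text. The authors' peak shape score has no unit, and other deposited columns give positions and widths in bp. Not given in the sources used here are the aligner, the peak caller, the way replicates were combined and the rule that assigned peaks to genes. No value per replicate or per sample was used, and depth is unknown.

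Coordinates are as deposited, on scaffolds with NCBI names. Regions that ran past a sequence start or wrapped its end were kept to the sequence, and plastid and mitochondrial sequences were left out. Overlap meant at least 1 bp. A partner was the nearest centre of the other protein past 2 within 1000 bp. Of the peaks without overlap, those with a partner were members, and the search was tested on simulated lists. Intervals are 95% Wilson intervals. A gene with a blank description took the one from its other lines.

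Named genes were the 10 described genes per protein with the highest neighbour peak and up to 4 per gene list, and named pairs were the 5 with the highest lower score. The members and lists were chosen with earlier results of these data known. The order of sites, the region shape and the organelle and disease resistance lists were chosen after seeing the data. The alternatives were score limits, distances, overlap rules and sequence lengths. A further deposited sheet that no label ties to a protein was left out. DNA sequences and motifs were not analysed here. Python 3.11.15 with pandas 2.3.3, numpy 2.4.6, scipy 1.17.1 and matplotlib 3.10.9 was used.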

Additional observations from a re-analysis of the deposited data

How the results depend on the processing

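No paired analysis was possible because the lists hold no column per replicate, and for the same reason no replicate could be left out. With scores above 3 there were 169 AmMIXTA and 409 NtZFP8 neighbour peaks, 94 mutual pairs with a median distance of 389 bp, 29 genes, and NtZFP8 on the higher side of 94.8% of AmMIXTA members with 100 bp or less between edges. Within 500 bp there were 287 AmMIXTA and 563 NtZFP8 neighbour peaks, 198 pairs (median 358 bp) and 37 genes. Within 2000 bp there were 1255 AmMIXTA neighbour peaks and 608 pairs (median 791 bp). Counting overlap only with peaks above 2 gave 1031 AmMIXTA and 1402 NtZFP8 neighbour peaks and 555 pairs, with a median distance of 578 bp. Treating edges within 50 bp as overlap left 285 pairs with a median distance of 584 bp. Where edges were 100 bp or less apart, NtZFP8 was on the higher side in 84.1% of 63 AmMIXTA and 78.5% of 121 NtZFP8 members. On sequences with a listed peak ending at 10000 bp or beyond there were 534 AmMIXTA and 631 NtZFP8 neighbour peaks and 230 pairs. At the same limit of 100 bp, NtZFP8 was on the higher side in 84.9% of 86 AmMIXTA and 78.7% of 155 NtZFP8 members. Sites within 400 bp by centre gave 94.5% for AmMIXTA and 91.8% for NtZFP8. NtZFP8 members with a singly held nearest partner gave 92.7% with 100 bp or less between edges, and 73.7% irrespective of the gap. Fewer or more peaks by construction account for the counts, and for the other values the cause was not tested. Leaving out regions at sequence ends changed counts little (789 AmMIXTA and 1176 NtZFP8 neighbour peaks, 379 pairs). Of the 24 named genes, 13 kept a neighbour peak above 3 and 14 within 500 bp. Depth is unknown, so no limit from depth can be given.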
